A study of Nasonia vitripennis with 15 samples.

Results

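Expression of 4 cuticle genes was followed through RNA libraries made from testes of the parasitoid wasp Nasonia vitripennis: the apidermin apd-3 (NV14652), the chitin-binding protein gene Cpap3-a1 (NV10389), the Osiris gene Osi8 (NV12634) and the yellow-family gene Y-b (NV11779). They were chosen by name from earlier results of these same counts, so their own levels and differences are described here with no test. Each matched 1 transcript row, and the 4 rows stood among 26279 transcripts of 13999 genes. The 15 libraries comprised 5 groups of 3 pools (A, B and C) of testes of strain AsymC. At 25 °C, pools were taken at 0 h and 10 h, both labelled as white nymphs, and at 24 h, labelled as white nymphs with red eyes. The other pools were taken at 36 °C at 10 h (white nymphs) and at 24 h (white nymphs with red eyes). The 0 h pools are called the white nymph stage below, and the 24 h pools at 25 °C the red-eyed white nymph stage. Nothing in the labels says whether the pools came from separate cultures, so the spread between pools may be technical in part.

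Insect cuticle is built by epidermal cells, which secrete chitin and cuticle proteins before each moult under the control of ecdysone. Apidermins were first described as cuticle proteins of the honey bee, CPAP3 proteins bind chitin through domains of the peritrophin-A type, and Osiris genes form a conserved insect cluster that is expressed in cuticle-secreting cells of Drosophila. The yellow family is named for a Drosophila gene needed for dark cuticle pigment and is related to the major royal jelly proteins of the honey bee. In Nasonia these roles are read from the gene names.

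Libraries held between 1749769 and 7154421 counts (median 3177175). Among the genes listed as testis markers, cut up (DLC-A, NV13256), a dynein light chain gene, lay between 3054 and 10477 CPM in the 15 libraries. CPM are counts scaled to a library of 1000000 counts after TMM normalization. klhl10 (NV13442) lay between 327 and 2746 CPM. The main transcripts of lebercilin (NV11655) and tektin-1 (NV13124) were lower, at 7.84 to 37.8 CPM and 7.41 to 60.3 CPM. Testis libraries alone cannot show that these genes are specific to germ cells. Of the 9 genes listed as testis markers, Adlip (NV15130) had no count in any library. Pool B at 36 °C and 10 h stood apart from its group. The squared scatter of its counts (chi-square per transcript) was 114 times (against pool A) and 73.0 times (against pool C) that of counting noise alone. For the other 13 pairs of pools within a group it was 2.38 to 36.2 times. This measure grows with depth, pool B was the deepest library, and no pair was compared at equal depth. Pool A of the red-eyed stage stood apart in its cuticle transcripts, as given below. In bulk tissue, a lower level can stem from fewer cells of a type or from less RNA per cell, and these cannot be told apart. The levels of the 4 genes in all libraries are shown first.

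**Figure D1:**
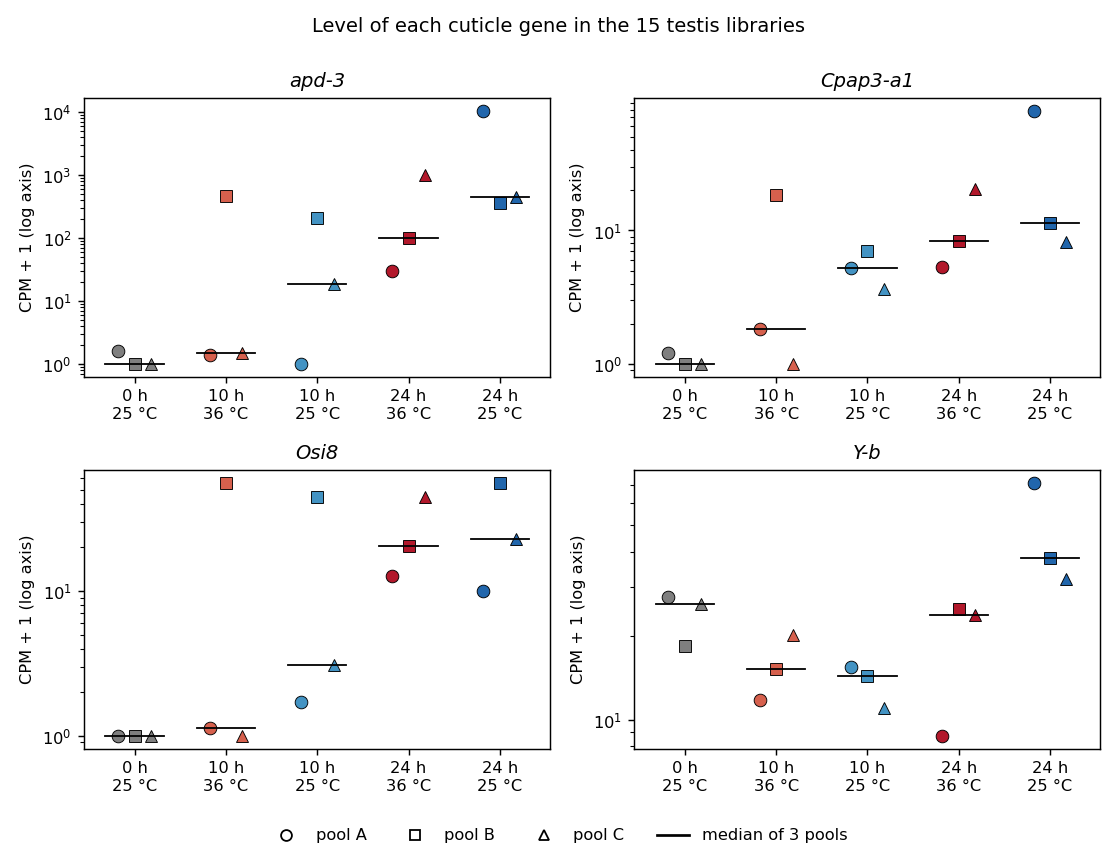
Level of each gene as CPM + 1 on a log axis, by time and temperature. Each symbol is 1 pool and the bar is the median of the 3 pools. Red-eyed pool A reached 10554 CPM for apd-3, and Osi8 was at 0 in all 3 pools of 0 h.

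apd-3 was nearly silent in testes of the white nymph stage (0 h) and abundant in those of the red-eyed stage. At 25 °C it had 3, 0 and 0 counts in pools A, B and C at 0 h, 0, 663 and 34 counts at 10 h, and 29566, 729 and 1070 counts at 24 h. Pool A of the red-eyed stage was far above its sister pools, and at 10 h pool A had none while pool B was the high one. The median level was 456 CPM in the red-eyed stage (361 to 10554) and 0 CPM in the white nymph stage (0 to 0.636), and the groups did not overlap. The share of all transcripts whose groups separate was not counted for any comparison, so such statements are a description only. Of all 7809 transcripts tested between these stages, 19.9% were called higher and 17% lower. The median at 24 h was 25.5 times that at 10 h at 25 °C, again without overlap, whereas the 10 h and 0 h pools overlapped. This ratio rests on few pools: with 1 pool left out it ran from 3.998 (without pool A at 10 h) and 4.34 (without pool C at 10 h) to 51.0 (without pool B at 10 h), 306 (without pool C at 24 h) and 308 (without pool B at 24 h). A count of 0 allows up to 3 counts, which corresponds to 0.410 to 1.44 CPM in the 0 h libraries. Shares, intervals and such limits cover counting error only.

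In red-eyed pool A, apd-3 was the 8th most counted of the 13169 transcripts with a count. It took 0.795% of that library's counts (95% Wilson interval 0.7865% to 0.805%). The rows beside it by count, which are not corrected for transcript length, were NV12612 with 0.827% and cut up with 0.790%. In red-eyed pools B and C, apd-3 held places 594 and 456. Pool A accounted for 79.9% of the gene's CPM summed over 15 libraries, 10.3 times the next library, pool C at 36 °C and 24 h. The red-eyed level of apd-3 thus had a 29.3-fold range over 3 pools, and both other pools still lay above every pool at 0 h. Pool B at 36 °C and 10 h, also labelled as white nymphs, lay above both of them at 461 CPM.

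The apd-3 levels at 36 °C and 25 °C overlapped at both times. At 10 h it had 3, 3130 and 1 counts in pools A, B and C at 36 °C, against 0, 663 and 34 counts at 25 °C. Pool B was the high pool at both temperatures. At 24 h it had 146, 263 and 2514 counts at 36 °C, against 29566, 729 and 1070 counts at 25 °C, and the high pool was C at 36 °C and A at 25 °C. The median was 0.490 CPM at 36 °C and 17.9 CPM at 25 °C at 10 h, and 102 CPM at 36 °C and 456 CPM at 25 °C at 24 h. The sign of the difference at 10 h turned when pool A or pool C at 36 °C was left out. The testis markers were also highest in pool B at 10 h: their sum was 15910 CPM in pool B, 7516 CPM in pool A and 6379 CPM in pool C at 36 °C, and 13757, 10876 and 11320 CPM in the same pools at 25 °C. Their part in the levels at 10 h was not tested.

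Like apd-3, Cpap3-a1 was nearly absent at 0 h and highest at 24 h at 25 °C, at mostly lower counts, but its 10 h pools were more even. At 25 °C it had 1, 0 and 0 counts at 0 h, 18, 19 and 5 counts at 10 h, and 217, 21 and 17 counts at 24 h. All pools at 10 h were above all pools at 0 h, and all pools at 24 h were above all pools at 10 h. How many of all transcripts separate in this way was not counted. The median was 10.4 CPM in the red-eyed stage (7.24 to 77.5) and 0 CPM in the white nymph stage (0 to 0.212). The median at 24 h was 2.45 times that at 10 h, but 9.97 and 10.3 times without red-eyed pool B or C. Red-eyed pool A held 49.1% of the summed CPM, 3.97 times the next library. The remaining red-eyed pools, at 10.4 and 7.24 CPM, lay close to each other.

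At 10 h Cpap3-a1 had 6, 119 and 0 counts at 36 °C, against 18, 19 and 5 counts at 25 °C. Pool B at 36 °C exceeded every pool at 25 °C and pools A and C fell short of every one, so the groups overlapped. At 24 h it had 22, 19 and 48 counts at 36 °C, against 217, 21 and 17 counts at 25 °C, again with overlap. The medians at 24 h were 7.35 CPM at 36 °C and 10.4 CPM at 25 °C.

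A further 4 CPAP3 genes lay beside Cpap3-a1 in the RefSeq gene order: Cpap3-d2 (NV10386), Cpap3-d1 (NV10387) and Cpap3-a2 (NV10388) on one side and Cpap3-b (NV10390) on the other. They did not share its silence at 0 h. Cpap3-d1 had 166, 177 and 39 counts at 0 h, 147, 92 and 58 counts at 10 h, and 152, 32 and 70 counts at 24 h at 25 °C, with no step between stages. Cpap3-a2 had 111, 3 and 4 counts in the red-eyed pools and 16, 4 and 0 counts in the white nymph pools, so that only pool A stood out. Cpap3-d2 had 197, 14 and 17 counts in the red-eyed pools and 10, 22 and 7 counts in the white nymph pools. Pearson's r with Cpap3-a1, on log2(CPM + 1) over the 15 libraries, was 0.87 for Cpap3-b, 0.86 for Cpap3-d2, 0.79 for Cpap3-a2 and 0.43 for Cpap3-d1. These and the other r values describe libraries that share groups and pool letters, and carry no p.

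Osi8 was the gene with the cleanest absence at 0 h and the least dependence on red-eyed pool A. At 25 °C it had 0, 0 and 0 counts at 0 h, 3, 138 and 4 counts at 10 h, and 25, 111 and 51 counts at 24 h. Pool B was the highest at both later times, and pool A, the highest for apd-3 and Cpap3-a1 at 24 h, was the lowest for Osi8. The median level was at least 15.04-fold higher in the red-eyed stage than at 0 h, against the limit of 3 counts in the shallowest 0 h library (1.44 CPM), and at least 10.6-fold higher without red-eyed pool B. At 10 h, 138 of the gene's 145 counts were in pool B, and pools A and C (0.708 and 2.101 CPM) lay near the limits of the 0 h libraries, so no fold is given. The median was 21.7 CPM at 24 h (8.92 to 54.9) and 2.101 CPM at 10 h (0.708 to 43.7), and these 2 groups overlapped.

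At 10 h Osi8 had 1, 368 and 0 counts at 36 °C, against 3, 138 and 4 counts at 25 °C. Pool B alone carried the gene at both temperatures. At 24 h it had 59, 50 and 106 counts at 36 °C, against 25, 111 and 51 counts at 25 °C, and every pool expressed it. The medians at 24 h, 19.3 CPM at 36 °C and 21.7 CPM at 25 °C, came within the range of either group. The difference turned its sign when pool A or B at 36 °C or pool B at 25 °C was left out. Pool B held 21.1% of the gene's summed CPM in the red-eyed stage and 20.8% at 36 °C and 10 h, so no library dominated.

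The genes around Osi8 moved with it. The RefSeq order gave NV12636, a gene with no symbol or NV number and NV12635 on one side, and Osi7 (NV12633), NV12632 and NV12631 on the other. Osi7, an Osiris gene like Osi8, had no count at 0 h in any pool, 3, 57 and 3 counts at 10 h, and 11, 66 and 49 counts at 24 h at 25 °C. NV12636 had no count at 0 h either, 1, 71 and 2 counts at 10 h, and 14, 37 and 42 counts at 24 h. Both were highest in pool B at 36 °C and 10 h, with 426 and 357 counts. Of the 6 neighbours, 5 had at least 50 counts, and their r with Osi8 ran between 0.66 and 0.98.

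NV12635 and NV12631 formed an exception within this stretch. NV12635 had 9, 1 and 109 counts at 36 °C and 24 h, against 4, 0 and 16 counts at 25 °C. NV12631 had 8, 0 and 121 counts at 36 °C and 24 h, against 1, 1 and 3 counts at 25 °C. Both peaked in pool C at 36 °C and 24 h, and both were at 0 or 1 in red-eyed pool B, where Osi8 had its highest level (r of 0.66 each). Of the 10 transcripts most like Osi8 in the whole table, 5 lay within 6 genes of it. These were NV12637 (r = 0.99), Osi7 (0.98), NV12630 (0.95), NV12636 (0.95) and the gene without a symbol (0.95). No such list was chosen for position, but transcripts expressed in the same few libraries are alike by that alone.

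**Figure D2:**
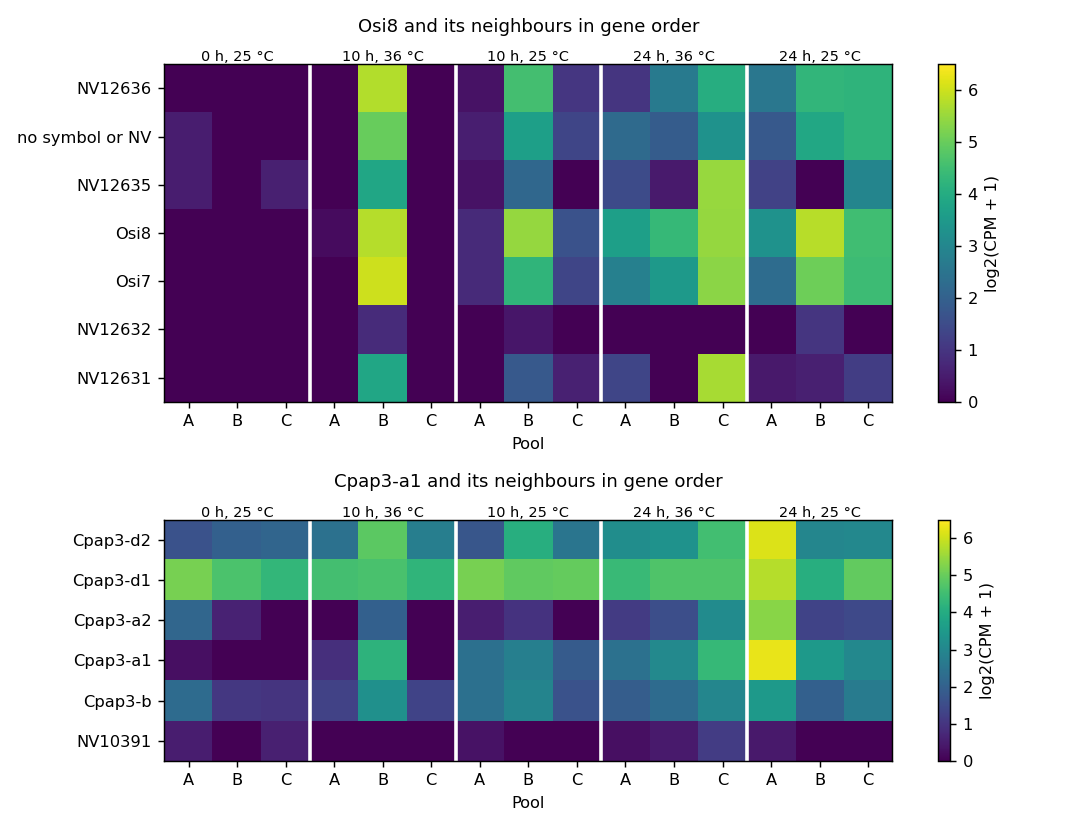
log2(CPM + 1) of Osi8 and of Cpap3-a1 with their neighbours in the RefSeq gene order (rows), in the 15 libraries (columns, pools A to C within each time and temperature). Osi8, Osi7 and NV12636 are dark at 0 h and bright in pool B at 36 °C and 10 h, whereas Cpap3-d1 is present in every library with 32 to 177 counts.

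Y-b behaved unlike the other 3. It was present in every library, with 19 to 197 counts. At 25 °C it had 126, 127 and 52 counts at 0 h, 61, 42 and 19 counts at 10 h, and 197, 75 and 73 counts at 24 h. The median was 25.0 CPM at 0 h (17.3 to 26.7), 13.3 CPM at 10 h (9.98 to 14.4) and 37.1 CPM at 24 h (31.1 to 70.3), and with TMM scaling none of these 3 groups overlapped with another. How many of all transcripts separate in this way was not counted. Y-b was thus lowest at 10 h, with 0.532 times its level at 0 h (0.455 times with scaling by total count alone). Its red-eyed level was 1.48 times that of the white nymph stage. This last difference depended on the scaling: by total count alone the ratio was 1.16 and the groups overlapped, with 28.6 to 53.0 in the red-eyed stage and 19.2 to 29.7 in the white nymph stage.

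Y-b was the only one of the 4 genes whose heat groups separated, and only at 24 h. The share of all transcripts whose groups separate was not counted, so this is a description only. Of all 8351 transcripts tested, 8.37% were called higher and 5.9% lower with heat at 24 h. Y-b had 39, 62 and 56 counts at 36 °C, against 197, 75 and 73 counts at 25 °C. The median was 22.8 CPM at 36 °C (7.73 to 24.0) and 37.1 CPM at 25 °C (31.1 to 70.3), a ratio of 0.614. At 10 h it had 76, 96 and 39 counts at 36 °C, against 61, 42 and 19 counts at 25 °C. The medians at 10 h, 14.1 CPM at 36 °C and 13.3 CPM at 25 °C, lay in overlapping ranges. Hexamerins, storage proteins of the fat body, also separated at 24 h, with a sum of 22.8 to 30.1 CPM at 36 °C and of 73.2 to 89.2 CPM at 25 °C, and Hex70b (NV12472) was lower there (edgeR, log2 fold change -2.102, adjusted p = 0.00385). Hex109 (NV11094), the other hexamerin tested, did not pass (edgeR, log2 fold change -0.11, adjusted p = 0.887). The testis markers summed to 13288 to 15779 CPM at 36 °C and to 17544 to 22644 CPM at 25 °C. The part of either list in the Y-b difference was not tested.

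The ratio between genes within a library is free of library size, and it varied widely. Where both genes had at least 10 counts (8 libraries), apd-3 had a median of 7.54 counts for each count of Osi8. This ratio was 2.47 in pool A at 36 °C and 24 h and 1183 in red-eyed pool A, a 478-fold range. Osi8 per count of Cpap3-a1 ran from 0.115 in red-eyed pool A to 7.26 in pool B at 25 °C and 10 h, and apd-3 per count of Cpap3-a1 from 6.64 to 136. Osi7 per count of Osi8 stayed between 0.413 and 1.16, a 2.80-fold range. Red-eyed pool A held apd-3 and Cpap3-a1 in excess of Osi8, while the Osiris pair kept its proportion there (0.440).

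**Figure D3:**
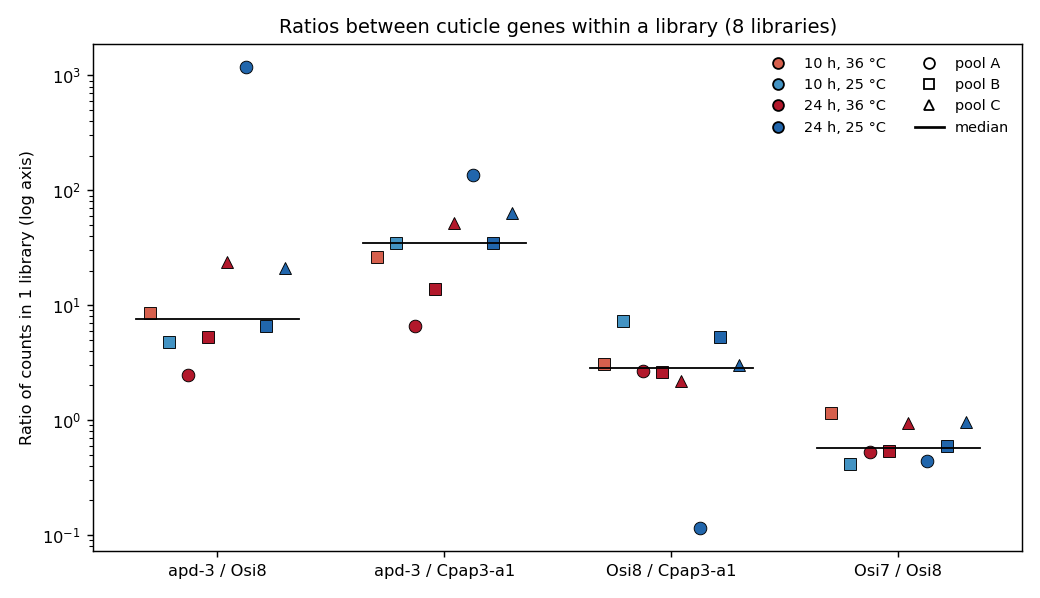
Ratio of the counts of 2 genes within a library on a log axis, for the 8 libraries in which both genes had at least 10 counts. Colours give time and temperature, symbols the pool and bars the median. Red-eyed pool A stands alone at 1183 for apd-3 over Osi8 and at 0.115 for Osi8 over Cpap3-a1, but not for Osi7 over Osi8 (0.440).

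Across the 15 libraries, r was 0.93 between apd-3 and Cpap3-a1, 0.86 between apd-3 and Osi8, and 0.79 between Cpap3-a1 and Osi8. Without red-eyed pool A, these were 0.90, 0.97 and 0.92. With Y-b, r was 0.47 for apd-3, 0.41 for Cpap3-a1 and 0.16 for Osi8, and 0.21, 0.06 and 0.16 without red-eyed pool A. Of 10584 other transcripts with at least 50 counts, the closest to apd-3 was NV10738 (r = 0.98), and 1 of its closest 10 was on the cuticle list, CPLCP3 (NV13935, r = 0.96). The 10 closest to Cpap3-a1 held no cuticle gene. They included cut up (r = 0.96), which was abundant in every library, and NV11290 led them (r = 0.97). Those of Y-b reached only 0.87. Of each list of 10, 5 or 6 stayed among the closest 10 when the member's highest library was left out, but cut up moved to place 62 for Cpap3-a1. Ranked by Spearman's rho instead, the closest 10 shared 2 transcripts with those above for apd-3, 0 for Cpap3-a1, 6 for Osi8 and 2 for Y-b.

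The other cuticle families were taken by symbol from RefSeq: Rebers-Riddiford proteins (CPR), CPAP3 proteins, low-complexity proline-rich proteins (CPLCP), tweedle proteins (TWDL), the remaining apidermin apd-1, Osi7 and a further Osiris gene, and yellow and royal jelly-like genes. The list held 62 genes with 80 transcripts, of which 15 had no count and 32 had at least 50 counts. Of these 32, 20 (62.5%) were highest in red-eyed pool A, against 18.3% of all 10585 transcripts with at least 50 counts. In 9 of the 32, that library held at least 50% of the summed CPM, against 0.671% of all transcripts. Without it, pool C at 36 °C and 24 h was the highest library for 10 of the 32, more than any other library, against 7.32% of all transcripts.

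Several of these genes had most of their CPM in red-eyed pool A, from 77.8% for Y-y and 82.8% for apd-1 to 99.3% for CPR16. CPR16 (NV16248) had 462, 0 and 0 counts in the red-eyed pools, and at most 1 count in any other library. CPR19 (NV16252) had 1127, 5 and 9 counts in the red-eyed pools and 0, 2 and 2 counts in the white nymph pools, and 14 counts in pool C at 36 °C and 24 h. CPR34 (NV13164) had 1074, 2 and 9 counts in the red-eyed pools and 0, 0 and 1 counts in the white nymph pools, and 24 counts in pool C at 36 °C and 24 h. Y-y (NV16239), the family member named for Drosophila yellow, had 123, 7 and 5 counts in the red-eyed pools and 0, 1 and 0 counts in the white nymph pools. apd-1 (NV14653), 2 genes from apd-3, had 32, 0 and 4 counts in the red-eyed pools and 1, 1 and 0 counts in the white nymph pools. The whole list came to 2594 CPM in pool A of the red-eyed stage, to 446 CPM in pool B and to 422 CPM in pool C, and to 330, 207 and 181 CPM in the white nymph pools. Pool A was therefore the library in which both the 2 steep members, apd-3 and Cpap3-a1, and several CPR genes were at their maximum.

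**Figure D4:**
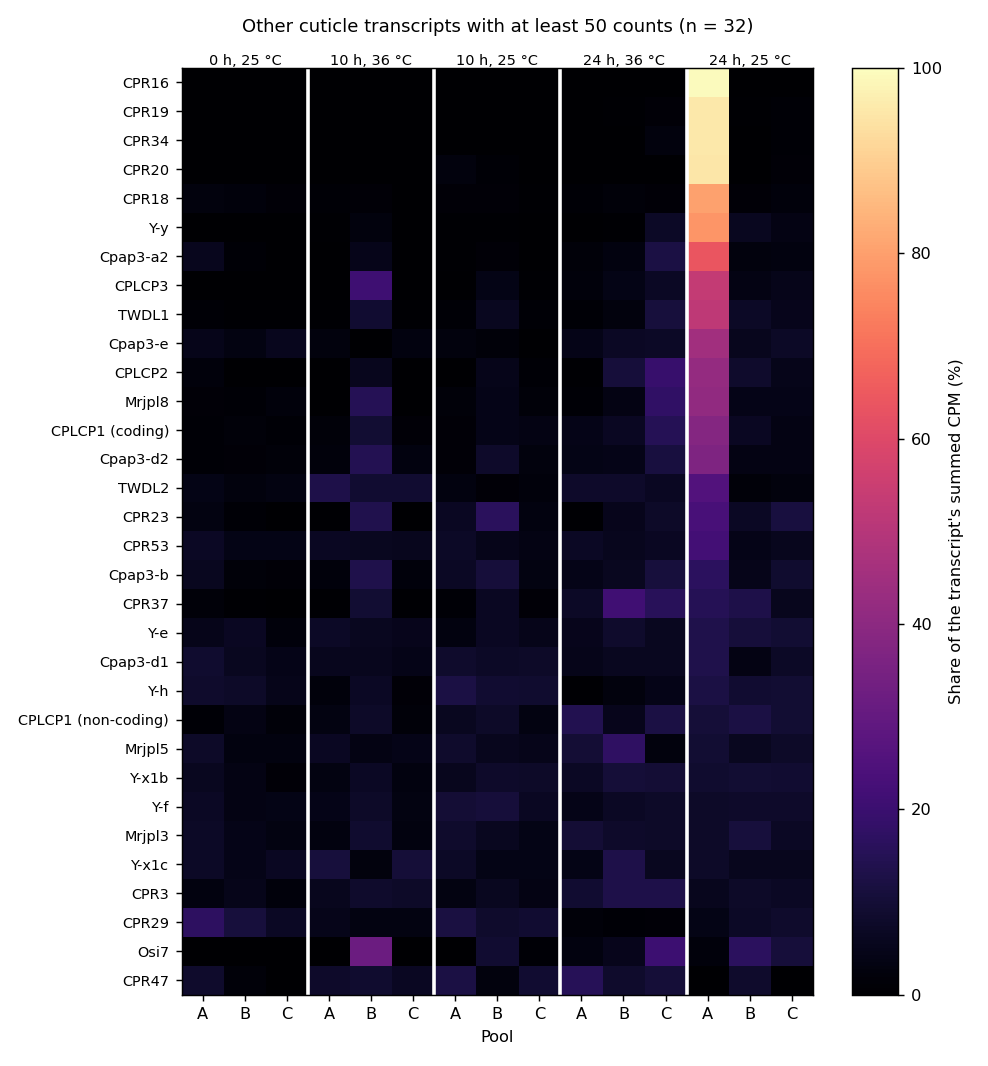
Share of each transcript's summed CPM (colour, in percent) that fell in each of the 15 libraries (columns), for the 32 other cuticle transcripts with at least 50 counts, ordered by their share in red-eyed pool A. The upper 9 rows have at least 50% there, and 20 of 32 have their highest level there.

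Markers of other tissues did not single out that pool in the way the cuticle list did, but some changed with stage. The hexamerin sum was 89.2, 73.2 and 74.1 CPM in pools A, B and C of the red-eyed stage and 31.3 to 59.5 CPM in the white nymph pools, and Hex70b was higher in the red-eyed stage (edgeR, log2 fold change 1.01, adjusted p = 0.00880), a call kept in all 6 fits with a pool left out. Tropomyosin transcripts for muscle summed to 451, 351 and 341 CPM in the red-eyed pools and to 482, 309 and 389 CPM in the white nymph pools. The 14 nerve genes summed to 57.1, 47.0 and 46.0 CPM in the red-eyed pools and to 43.8 to 62.7 CPM in the white nymph pools. Pool A was thus the highest red-eyed pool for these lists. It was not for gut and blood cell genes (1.78, 1.98 and 2.98 CPM) or the cyst cell gene Dsx (6.78, 3.96 and 6.81 CPM). TMM scaling raised levels in pool A: apd-3 had 10554 CPM there, and 7955 by total count alone. The testis markers summed to 17544 to 22644 CPM in the red-eyed pools and to 5456 to 8725 CPM in the white nymph pools, with pool A the highest. Of the 9 testis transcripts tested, 7 were higher. From this list, the paper named klhl10, cut up, Dnai2, heat and the dyneins NV14122 and NV16467 as upregulated between these stages. Their rise was thus known in advance from these libraries and is no independent result. The part of carried-along epidermis in the levels of the 4 genes was not tested.

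In the red-eyed stage against the white nymph stage, 19 of the 80 other cuticle transcripts passed the filter on low counts, 10 of them were higher and none was lower in edgeR's quasi-likelihood test (Benjamini-Hochberg adjusted p under 0.05). Of all 7809 transcripts tested, 19.9% were called higher and 17% lower. No transcript of the list was lower at an unadjusted p under 0.05 or in DESeq2. DESeq2 was run without that filter, on the 55 list transcripts with a count in these pools, and called 14 of them higher. The share of all transcripts that DESeq2 called was not counted. The median log2 fold change was 1.605 over the 19 and -0.05 over all tested. The filter kept transcripts that were high in several pools, so CPR16, CPR19 and CPR34 were not among the 19. Transcripts near 0 at 0 h, such as CPLCP3 (0, 0 and 1 counts) and CPR37 (6, 2 and 0 counts), passed it only through the red-eyed pools. For these only a higher call was possible, so the split of 10 against none and the median are partly set by the filter. The 4 genes with the lowest p were CPR37, CPLCP1, Y-e and Y-x1b.

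CPR37 (NV12573) averaged 7.70 ± 3.42 CPM in the red-eyed stage and 0.515 ± 0.669 CPM in the white nymph stage (SD, n = 3 each; edgeR, log2 fold change 3.69 ± 0.68 SE, adjusted p = 0.00168). CPLCP1 (NV12757) had 2 called transcripts. The clearer, a non-coding one, averaged 8.59 ± 1.16 CPM in the red-eyed stage and 1.77 ± 1.11 CPM in the white nymph stage (edgeR, log2 fold change 2.17, adjusted p = 0.00373). The coding one had a log2 fold change of 3.73 (edgeR, adjusted p = 0.0125). It kept its call in 2 of the 5 fits with a pool left out in which it was tested, and did not pass the filter without red-eyed pool A. Y-e (NV16650), whose beetle counterpart in Tribolium acts in cuticle pigment, averaged 17.6 ± 3.15 CPM in the red-eyed stage and 6.96 ± 3.39 CPM in the white nymph stage (edgeR, log2 fold change 1.27, adjusted p = 0.0180). By family, 4 of 6 CPLCP and TWDL transcripts, 2 of 5 CPR, 2 of 3 CPAP3 and 2 of 5 yellow and royal jelly-like transcripts were higher. CPR37 kept its call in all 5 fits with a pool left out in which it was tested. Without red-eyed pool A, CPR37 did not pass the filter. The non-coding CPLCP1 transcript kept its call in all 6. The other 8 calls were lost in at least 1 such fit: 7 transcripts were higher without red-eyed pool A, 6 without white nymph pool B and 4 without white nymph pool C.

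Between 10 h and 0 h at 25 °C, 17 other cuticle transcripts were tested and edgeR called none in either direction, while 3.4% of all 8206 transcripts were called higher and 0.353% lower. At an unadjusted p under 0.05, 4 were higher and none lower. DESeq2, run without the filter on 53 list transcripts, called 2 higher and none lower. With the pool letter as a block, edgeR called 2 higher, Y-f (NV19097, adjusted p = 0.0160) and the non-coding CPLCP1 transcript (adjusted p = 0.0411). Of the 4 members, apd-3 and Osi8 did not pass the filter in this comparison. In the other 4 comparisons all 4 passed.

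Between 24 h and 10 h at 25 °C, 19 were tested and 1 was higher, against 3.22% of all 7573 transcripts higher and 1.27% lower. This was Y-e, with 17.6 ± 3.15 CPM at 24 h and 7.39 ± 2.70 CPM at 10 h (SD, n = 3 each; edgeR, log2 fold change 1.27, adjusted p = 0.0467). The call was lost in 4 of 6 fits with a pool left out (without pool A or B at 24 h and without pool A or C at 10 h; adjusted p of 0.0928 to 0.168). None was lower, also at an unadjusted p under 0.05 and in DESeq2.

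CPR29 (NV13137), a Rebers-Riddiford gene, was called lower at 36 °C than at 25 °C at both times, though less stably at 10 h. It averaged 6.16 ± 1.40 CPM at 36 °C and 16.4 ± 3.23 CPM at 25 °C at 10 h, the only one of 24 tested transcripts that was called (edgeR, log2 fold change -1.37, adjusted p = 0.0290). At 24 h it averaged 2.45 ± 0.520 CPM at 36 °C and 10.9 ± 3.73 CPM at 25 °C (SD, n = 3 each; edgeR, log2 fold change -2.07, adjusted p = 0.00284). The call at 24 h held in all 6 fits with a pool left out, and that at 10 h only without pool B at 36 °C (adjusted p up to 0.108 in the other 5). Y-h (NV16644) was also lower at 24 h, with 2.06 ± 1.54 CPM at 36 °C and 8.24 ± 1.22 CPM at 25 °C (edgeR, adjusted p = 0.0355), and kept its call only without pool C at 36 °C (adjusted p of 0.0665 to 0.170 in the other 5).

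Over all 8351 transcripts tested, 2.24% were higher and 1.38% lower at 36 °C at 10 h, and 8.37% were higher and 5.9% lower at 24 h. No other cuticle transcript was called higher with heat at either time by edgeR or DESeq2. At an unadjusted p under 0.05, 2 were higher at 10 h and 1 at 24 h. Without pool B at 36 °C, the pool in which all of apd-3, Cpap3-a1 and Osi8 were high, 6 of 26 tested list transcripts were lower at 10 h. In every other fit with a pool left out at 10 h, none was called lower. The share of all transcripts called without pool B was not counted. The summed list had 253, 551 and 213 CPM in pools A, B and C at 36 °C and 10 h, against 351, 430 and 255 CPM at 25 °C. At 24 h it had 306, 415 and 612 CPM at 36 °C, against 2594, 446 and 422 CPM at 25 °C. The comparisons at 24 h and with the red-eyed stage share the same 3 pools at 25 °C. Among the genes of moulting control, the ecdysone receptor gene Ecr (NV11088) had 8.72, 5.03 and 3.66 CPM over its 2 transcripts at 36 °C and 24 h, against 1.43, 0.495 and 0.851 CPM at 25 °C, and its single tested transcript was higher (edgeR, log2 fold change 2.81, adjusted p = 0.00639), with the call held in all 6 fits with a pool left out. The chitinase gene Cht5 (NV15827), of too low a count to be tested, had 2.18, 2.71 and 4.07 CPM at 36 °C and 24 h, against 1.07, 0.495 and 1.28 CPM at 25 °C. Neither group of values overlapped with its counterpart, and the share of all transcripts that separate was not counted. At 10 h both genes separated too. Ecr had 3.25 to 6.37 CPM at 36 °C and 1.58 to 2.85 CPM at 25 °C, and Cht5 2.06 to 2.45 CPM and 1.05 to 1.58 CPM. The Ecr transcript did not pass at 10 h (edgeR, log2 fold change 0.93, adjusted p = 0.319).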

How the data were processed

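RNA from pooled testes was sequenced as paired-end poly(A) libraries with a stranded kit. The authors deposited read counts per transcript row, from TopHat2 2.1.0 alignments; featureCounts 1.6.3 is named in the submitters' processing notes and another counter in the methods, so the counter is not settled. Of the tables, 54 columns of normalized values and the columns of fold changes and p-values from DESeq2 were not used. Count columns repeated across tables (39) were identical. Gene symbols came from RefSeq by gene ID (11605 of 13999 matched; assembly of another build than the files, used for names and gene order only).

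CPM was the count divided by the library total times its TMM factor. Comparisons used edgeR 4.0.16 (robust quasi-likelihood fit, filterByExpr, adjusted p under 0.05 over all transcripts) in R 4.3.3, and DESeq2 1.42.0 as an alternative. The heat comparisons came from 1 fit of 12 libraries, the others from 6 libraries each. The procedure was tested on simulated data. With 3 pools against 3 an exact permutation test cannot go below p = 0.1.

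The members and lists were chosen with earlier results of these data known. Named genes were the members, their 10 most alike transcripts with at least 50 counts, the 3 genes on each side and, for each comparison, up to 4 other cuticle transcripts of lowest p. CPR16, CPR19, CPR34, Y-y, Ecr, Cht5, Hex70b and Y-f were described after their values were seen.

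Pools with the same letter deviated together in 2 comparisons: 10 h against 0 h at 25 °C (correlations of 0.374, 0.244 and 0.129 for A, B and C) and 36 °C against 25 °C at 10 h (0.332, 0.522 and 0.195). No label says what the letter stands for.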

Additional observations from a re-analysis of the deposited data

How the results depend on the processing

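The counts of other cuticle transcripts called depended on the processing, and the cause was not tested. With no filter on low counts, 16 were higher and 1 lower in the red-eyed stage against the white nymph stage, 5 were higher at 10 h against 0 h and 6 at 24 h against 10 h at 25 °C. With the pool letter as a replicate block, 2 were higher at 10 h against 0 h, 3 at 24 h against 10 h and 1 at 36 °C against 25 °C at 24 h, where (as in the red-eyed against white nymph comparison and at 24 h against 10 h) pools shared only a letter. DESeq2, also run without the filter, called 2 of 53 higher at 10 h against 0 h and 2 of 56 at 24 h against 10 h. Leaving out each pool in turn gave 4 to 11 higher in the red-eyed stage, 0 to 1 at 10 h against 0 h, 0 to 2 at 24 h against 10 h, 0 to 6 lower with heat at 10 h, and 0 to 1 higher and 1 to 2 lower with heat at 24 h. DESeq2 size factors within edgeR left every such count within 1.5 times. With 0.5 in place of 1 added before the log, the 6 differences of apd-3, Cpap3-a1 and Osi8 against 0 h, where the 0 h median is 0, grew by 0.746 to 0.998 on the log2 scale (Cpap3-a1 at 10 h was 3.25 in place of 2.39). The other 14 member differences moved by 0.58 at most. Scaling by total count alone made the Y-b groups of the red-eyed and white nymph stages overlap. In the counts of transcripts highest in 1 library, an alternative added after seeing the data left out red-eyed pool A, and the most in any library was then 10 of 32. Member differences with heat turned sign in 10 fits with a pool left out. Depth limits the low levels: 3 counts were 0.410 CPM in pool B at 0 h and 1.58 CPM in pool C at 25 °C and 10 h.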
